A study of Mus musculus
Rattus norvegicus and Mus musculus with 6 samples.

Results

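Lpl, Nr1h3, Apoe, Fabp3 and Plpp3 are genes of lipid handling, and their RNA was read in murine hematopoietic SC that had been cocultured with neonatal rat ventricular cardiac myocytes (NRVCM) or kept in monoculture. The members were every probe whose identifier carries the Entrez Gene ID of one of these genes. This gave 6 probes of 46628 on the array and 5 genes of the 8102 that could be named in the same way, with 2 probes for Lpl and 1 for each of the others. The genes had been picked because they were lower in coculture on these same arrays, so their differences are given as a description, with standard errors and 95% confidence intervals but no test.

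The SC were lin-/c-kit+ bone marrow cells from tibia and femur of C57Bl/6 mice labelled male, with no age given, and the NRVCM came from Wistar rats labelled female. No cell carried a transgene or received a drug. In the coculture group the SC lay with NRVCM for 48 h and were then separated by cell sorting, and in the monoculture group they were kept alone for 48 h and sorted in the same manner. Each group had 3 arrays, each from its own preparation of cells, hybridised to the Illumina Mouse Sentrix-6 BeadChip. Per the methods, monoculture wells held more SC than coculture wells, so the presence of NRVCM and the density of SC cannot be told apart in any difference given here.

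Lipoprotein lipase, encoded by Lpl, splits the triglycerides of circulating lipoproteins and releases fatty acids, and macrophages as well as heart muscle and fat secrete it. Apolipoprotein E, encoded by Apoe, is the ligand through which lipoprotein remnants bind receptors of the LDL receptor family, and macrophages secrete it when they are loaded with cholesterol. Nr1h3 encodes LXR alpha, a nuclear receptor that binds oxysterols as a partner of RXR. Its targets include genes of cholesterol export as well as Apoe and Lpl. Fabp3 encodes the fatty acid binding protein of heart and muscle, and Plpp3 a membrane phosphatase that removes the phosphate from lysophosphatidic acid, sphingosine 1-phosphate and phosphatidic acid.

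Values are normalized log2 signals, so a step of 1 is a doubling. They ran from 5.81 to 14.85 over the array. A probe was taken as above background on an array when it exceeded the brightest of 22 control probes for reporter and vector sequences, a limit of 6.57 to 6.71 depending on the array. On this scale 21605 probes were at background on all 6 arrays. Arrays correlated at r = 0.987 to 0.993 across probes within a group and at r = 0.967 to 0.977 between groups. Over probes above background, the SD between arrays had a median of 0.13 in coculture and 0.12 in monoculture. The labels were checked on sex-linked genes. Xist, transcribed from the inactive X chromosome of females, was at 8.72, 6.84 and 8.80 in cocultures 1, 2 and 3 and at 8.62, 8.77 and 8.21 in monocultures 1, 2 and 3. Eif2s3y, a gene of the Y chromosome, was at 8.93 in coculture 2 and between 6.23 and 6.33 on the other 5 arrays, which is at background. Thus 5 arrays went against the male label and coculture 2 stood apart, and results are also given without it.

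Across the array, 5 of the 6 member probes had all 3 coculture arrays under all 3 monoculture arrays, a pattern that 11.6% of all probes showed. By limma with Benjamini-Hochberg adjustment, 1.93% of all probes were called lower in coculture (898 probes) and 1.73% higher (806 probes), where a call needs a difference over 1.5-fold and an adjusted p under 0.05. Among the 25023 probes above background on at least 1 array, the shares were 3.59% lower and 3.22% higher. Since the members were chosen by this contrast, nothing is read from their place against these shares.

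**Figure D1:**
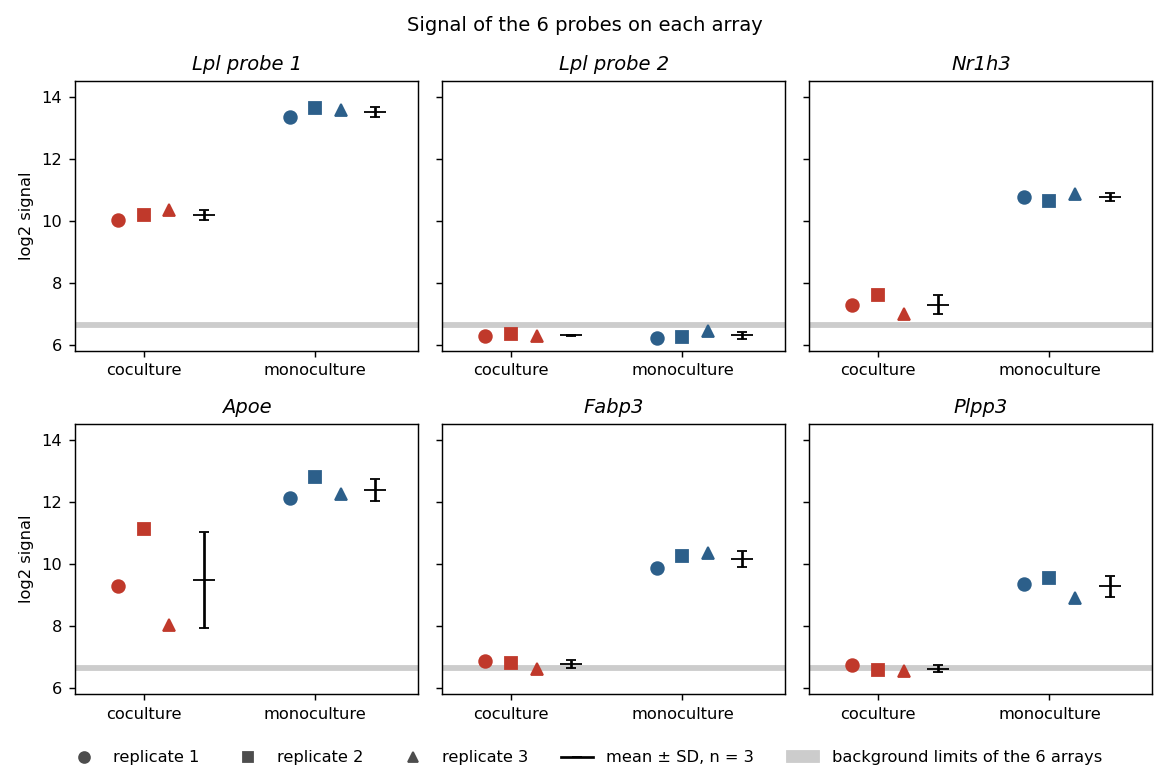
Normalized log2 signal (vertical axis) of the 6 member probes on each array, with cocultured and monocultured SC side by side. Points are single arrays, black bars the group means with SD, and the grey band spans the background limits of the 6 arrays. The 3 cocultures lie below the 3 monocultures for 5 probes, the coculture arrays of Apoe spread from 8.02 to 11.11, and Lpl probe 2 is at background throughout.

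Nr1h3, the transcription factor of the group, was read by 1 probe. Its signal was 7.28, 7.59 and 6.97 in cocultures 1, 2 and 3 and 10.77, 10.62 and 10.86 in monocultures 1, 2 and 3. All 6 values were above background, and the groups were separated by a gap of 3.03 between the highest coculture and the lowest monoculture. The difference of coculture minus monoculture was −3.47 on the log2 scale (SE 0.15, 95% CI −3.84 to −3.10), or 11.1-fold lower (8.55 to 14.3). This interval holds for signals that still contain background, since subtracting the background signal first gave 24.3-fold, and 2 of the 3 coculture arrays were above the higher background limit described below for Fabp3. In bulk RNA such as this, fewer cells of a type and less RNA per cell cannot be told apart. The probe moved from the 95.7th percentile of brightness in monoculture to the 76.2nd in coculture.

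Lpl was read by 2 probes, which did not give the same picture. Probe 1 read 10.00, 10.19 and 10.33 in coculture against 13.33, 13.64 and 13.55 in monoculture. The coculture values lay within 0.33 of each other, and the gap to the lowest monoculture was 3.00. The difference was −3.33 (SE 0.11, 95% CI −3.60 to −3.07), or 10.1-fold lower (8.39 to 12.1). In coculture the signal was 9.91% of that in monoculture, yet still at the 93.8th percentile of all probes, from the 99.5th in monoculture. Hence the RNA of lipoprotein lipase was lower but well above background on all 3 coculture arrays. Probe 2 read 6.28, 6.32 and 6.27 in coculture and 6.22, 6.26 and 6.43 in monoculture. It was below the background limit on all 6 arrays, so that it gave no reading of Lpl, and its difference of −0.01 neither repeats nor contradicts that of probe 1. The difference of Lpl therefore rests on 1 probe.

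Apoe had 1 probe and the widest spread among the members. It read 9.28, 11.11 and 8.02 in cocultures 1, 2 and 3, and 12.14, 12.78 and 12.24 in monocultures 1, 2 and 3. The cocultures covered a range of 3.08 on the log2 scale, so that the highest was 8.47-fold above the lowest, whereas the highest coculture was only 2.04-fold below the lowest monoculture. Its coculture SD of 1.55 ranked 10 among the 16374 probes above background on all coculture arrays. The mean difference was −2.91 (SE 0.72, 95% CI −4.66 to −1.17), or 7.54-fold lower (2.25 to 25.3). Without coculture 2, the array that stood apart in the sex-linked genes and gave the highest Apoe signal, the difference was −3.73 (SE 0.40), or 13.3-fold. Without coculture 3, which gave the lowest signal, it was −2.19 (SE 0.54). For the other members leaving out coculture 2 changed little, with −3.34 for Lpl probe 1, −3.62 for Nr1h3, −3.42 for Fabp3 and −2.62 for Plpp3.

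Fabp3, the intracellular fatty acid carrier, read 6.86, 6.81 and 6.60 in coculture and 9.87, 10.24 and 10.35 in monoculture. The groups were apart by 3.02, and 2 of the 3 coculture arrays were above the background limit. The difference was −3.40 (SE 0.13, 95% CI −3.72 to −3.08), or 10.5-fold (8.43 to 13.2). Because the coculture signal lay at the edge of background, the size of the difference is limited by the dim side. Under a higher limit that takes in 4 further foreign control probes (6.89 to 7.01, chosen after the values were seen), no coculture array was above background. The monoculture mean of Fabp3 was 9.24-fold above the mean of this limit on the coculture arrays, without allowance for the replicate spread.

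Plpp3, the lipid phosphatase, was near background in coculture. It read 6.74, 6.57 and 6.55 in coculture and 9.36, 9.54 and 8.90 in monoculture, with 1 of 3 coculture arrays above background. The groups did not overlap, with a gap of 2.16. The difference was −2.65 (SE 0.16, 95% CI −3.04 to −2.26), or 6.27-fold (4.78 to 8.23). No coculture array was above the higher limit. The monoculture mean was 4.99-fold above the mean of that limit on the coculture arrays, again without the replicate spread. Subtracting the background signal before taking logs widened the dim members' differences, to −4.60 for Nr1h3, −5.49 for Fabp3 and −4.91 for Plpp3. Lpl probe 1 was at −3.44 and Apoe at −3.17 by this route. Linear values under 16 after subtraction were set to a floor of 16. This floor replaced 1 coculture array of Fabp3 and 2 of Plpp3, so the sizes of these differences and their errors depend on it.

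The order of the members by the size of their difference depended on how background was treated. Without subtraction Nr1h3 was the most negative and Plpp3 the least, with overlapping intervals for Lpl probe 1, Nr1h3 and Fabp3. With subtraction Fabp3 was the most negative and Apoe the least, and Fabp3 (SE 0.32) lay well below Lpl probe 1 (SE 0.14). Fabp3 and Plpp3 then had coculture arrays at the floor, so their place depends on it. The members are therefore given no order.

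**Figure D2:**
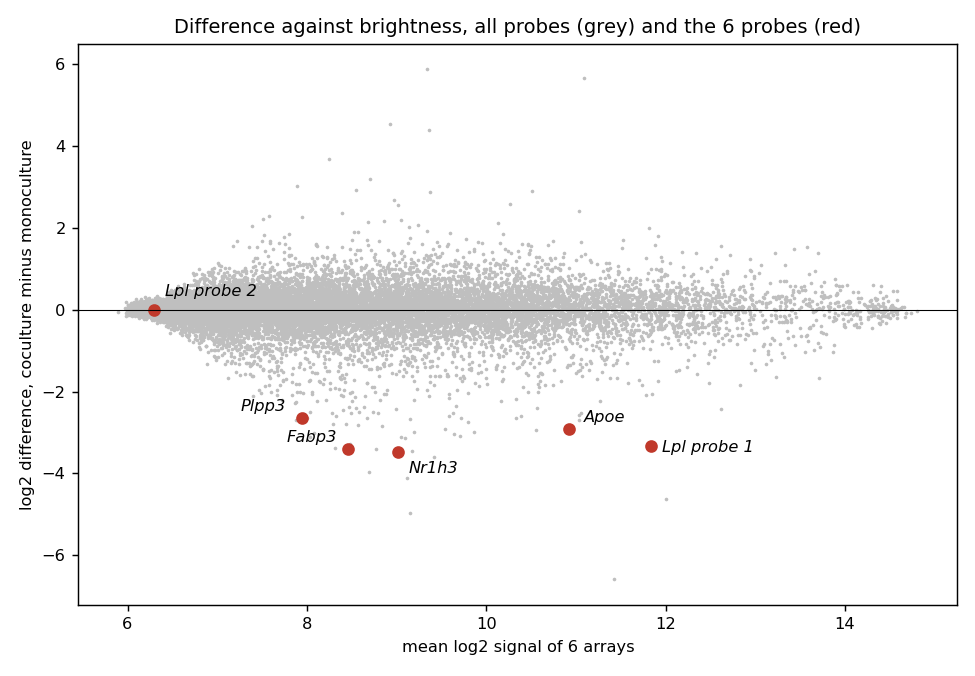
Difference of coculture minus monoculture (log2, vertical axis) against mean log2 signal over the 6 arrays (horizontal axis) for all probes in grey, with the 6 member probes marked. The 5 member probes with signal lie between −3.47 and −2.65 at very different brightness, and Lpl probe 2 lies at −0.01 at the dim end.

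The 3 coculture arrays did not fall in the same order for every member. Apoe and Nr1h3 were highest in coculture 2 and lowest in coculture 3. Fabp3 and Plpp3 were highest in coculture 1 and also lowest in coculture 3, but near background, whereas Lpl probe 1 was highest in coculture 3 and lowest in coculture 1. The order seen in Apoe and Nr1h3 was present in 17.3% of the 16374 probes above background on all coculture arrays, and in 27.8% of the 2634 probes whose coculture arrays spanned more than 0.5. Among the 778 of the 16374 probes that were called lower in coculture, whatever their span, it was present in 34.7%. It was more frequent in the list of macrophage genes, where 8 of the 9 genes above background on all coculture arrays had it and the remaining one, Gpnmb, had coculture 1 highest and coculture 3 lowest. The genes of a list share the same 3 arrays and are not independent of each other, so these counts are a description.

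**Figure D3:**
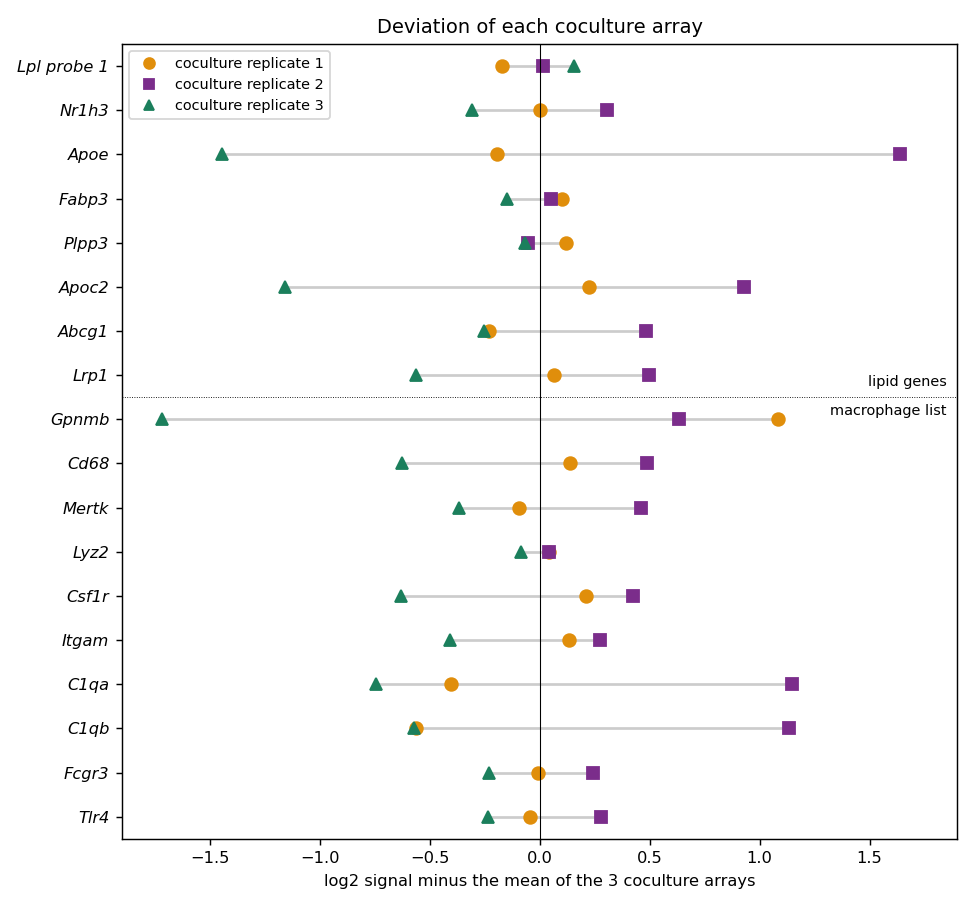
Deviation of each coculture array from the mean of the 3 coculture arrays (log2, horizontal axis) for the member genes, for Apoc2, Abcg1 and Lrp1, and for the 10 named macrophage genes (vertical axis), with a marker of its own for each replicate. Coculture 3 is the lowest array for every gene plotted except Lpl, for which it is the highest.

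Some macrophage genes were lower in coculture as well. Of 20 listed genes 10 could be named, of which 3 fell and none rose. Lower calls made up 1.93% of all probes and 3.59% of those above background on at least 1 array. The median difference of the 10 genes was −0.53 against −0.0013 over all probes. The list was drawn up with earlier results of these data known, so no excess is read from these values. Gpnmb, a glycoprotein of lipid-laden macrophages, fell by 4.63 (SE 0.69, limma adjusted p = 0.0153), and the call was lost without monoculture 1. Cd68, a lysosomal protein of macrophages, fell by 2.06 (SE 0.26, limma adjusted p = 0.0098), and Mertk, a receptor for apoptotic cells, fell by 1.59 (SE 0.20, limma adjusted p = 0.0094). A second probe of Gpnmb was above background in no coculture. Its monoculture mean was 7.64-fold above the mean background limit of the cocultures. With background subtracted the 3 calls were lost, at differences of −4.88 for Gpnmb, −2.11 for Cd68 and −2.26 for Mertk. Lyz2, the lysozyme of myeloid cells, was at −0.14 (limma adjusted p = 0.313), and Fcgr3, an Fc receptor, at 0.34, and the remaining C1qa, Itgam and Tlr4 were at 0.21, −0.09 and 0.10. The differences of Csf1r, the receptor for the macrophage growth factor, and of the complement gene C1qb were −0.92 and −1.16, and neither passed the test. C1qb read 10.21, 11.90 and 10.20 in coculture and 11.88, 12.05 and 11.86 in monoculture, so that coculture 2 lay within the range of the monocultures and the other cocultures below it. The summed linear signal of the 10 genes was 31343 to 42209 in coculture and 63403 to 67374 in monoculture. Such a sum is weighted to the brightest genes and is no reading of the whole list. In monoculture these were Lyz2 and Gpnmb, with means of 14.60 and 14.32, against 14.47 and 9.69 in coculture. The part of the macrophage genes in the differences of the members was not tested.

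Other cell types were read as follows. Among hematopoietic progenitor genes, 3 of 11 could be named, and of these Elane, the neutrophil elastase of promyelocytes, rose by 0.59 (limma adjusted p = 0.008), a call lost without coculture 2, coculture 3 or monoculture 1, while the myeloperoxidase gene Mpo was between 14.28 and 14.66 on all 6 arrays. Kit, by which the cells were selected, and Cd34 were not analysed here because no probe was named for them. The summed progenitor signal was 46357 to 52899 in coculture and 36714 to 43601 in monoculture. It came almost only from Mpo and Elane, since the remaining gene, Sox4, had means of 8.49 in coculture and 8.47 in monoculture. Of 25 heart muscle genes 8 were named and none was called, with 2 higher at an unadjusted p under 0.05. These were Cox7a1, at 0.55 (limma adjusted p = 0.180), and Mybpc3, at 0.21 (limma adjusted p = 0.262). Cox7a1 read 7.68, 8.31 and 8.20 in coculture and 7.43, 7.33 and 7.77 in monoculture. Both genes were above background on all 6 arrays, as was Atp2a2, at 0.07. Myh6 and Myh7, the myosin heavy chains of heart muscle, were at background on all arrays. The 8 genes summed to 936.7 to 1059.2 in coculture and to 855.5 to 937.6 in monoculture. Col1a1, Col1a2 and Col3a1 of fibroblasts were at background too. None of the 6 named fibroblast genes or of the 3 named endothelial genes was called by limma (1 of each at an unadjusted p under 0.05). These were Fbln1 of fibroblasts, at 0.18 on its brighter probe, and Pecam1 of endothelial cells, at −0.52. That Fbln1 probe was above background on all coculture arrays but not on all monoculture arrays, and its second probe was at background. The only named adipocyte gene, Fabp4, was between 6.61 and 6.72. The single named dendritic cell gene and the 2 of mast cells and basophils were not called, though the latter 2 were lower at an unadjusted p under 0.05. Of 2 named genes of megakaryocytes and red cells, the platelet integrin gene Itga2b fell by 2.12 (limma adjusted p = 0.0168), a call lost with background subtracted (−2.91).

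Genes that work with the members were then examined in 6 lists, with 43 of 99 genes named and 30 of these above background on at least 1 array. Of the 43, 2 fell and 1 rose, that is 6.98% in either direction against 3.65% of all probes. Their median difference was 0.0021. Most of the 43 were above background, and of all probes above background on at least 1 array 3.59% were called lower and 3.22% higher. These lists were also drawn up with earlier results of these data known, so the 6.98% is a description only. Without coculture 2 the 3 calls held, at differences of −1.73 for Abcg1, −1.48 for Lrp1 and 0.64 for Soat1, whereas all 3 were lost with the background signal subtracted, a setting that called 92 probes lower. There the differences were wider, at −1.62 for Abcg1, −1.70 for Lrp1 and 1.43 for Soat1, and so were their errors (SE 0.32, 0.51 and 0.24).

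Among partners and targets of LXR, 7 of 16 genes were named and 1 fell. Abcg1, which exports cholesterol to HDL and is a target of LXR, read 9.20, 9.92 and 9.18 in coculture and 10.60, 10.98 and 11.18 in monoculture. Its groups did not overlap, and it fell by 1.49 (SE 0.24, limma adjusted p = 0.0184). The call was lost without coculture 1, coculture 3 or monoculture 2, and over all alternatives the adjusted p lay between 0.0074 and 0.162. Scd2, a desaturase, was at 0.82 (limma adjusted p = 0.189) and Fasn, the fatty acid synthase, at 0.35. The RXR gene Rxrb was at 0.04, and Srebf1, which encodes a driver of lipid synthesis, was at background on all arrays. Apoc2, whose protein activates lipoprotein lipase, read 9.54, 10.25 and 8.16 in coculture and 9.20, 9.35 and 9.56 in monoculture. Its coculture arrays lay on both sides of the monoculture arrays, with a difference of −0.05 (95% CI −1.24 to 1.13), and they had the order of Apoe.

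In the list of lipoprotein lipolysis and uptake, 11 of 18 genes were named and 1 fell. Lrp1, a receptor for Apoe-bearing remnants, read 7.95, 8.38 and 7.32 in coculture and 8.95, 9.22 and 9.18 in monoculture. Again coculture 2 was the highest and coculture 3 the lowest of their group, and the groups did not overlap. Lrp1 fell by 1.23 (SE 0.25, limma adjusted p = 0.0417). This call was lost without coculture 1 or without any one of the monocultures, with adjusted p up to 0.312 over all alternatives. Lrpap1, the chaperone of Lrp1, was at 0.05 and Sel1l, which helps lipase leave the endoplasmic reticulum, at 0.10, and neither passed the test.

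Of genes for fatty acid uptake, activation and binding, 10 of 18 were named, 4 were above background on at least 1 array and none was called by limma, with 1 gene, Scarb1, at an unadjusted p under 0.05. The fatty acid binding protein genes Fabp5 and Fabp6 were at background on all arrays, as were the scavenger receptor genes Cd36 and Msr1. Among the named genes of this family Fabp3 was thus the only one with a signal clearly above background in monoculture. Scarb1, a receptor for HDL, was at 0.40, and the acyl-CoA synthetase genes Acsl1 and Acsl4 were at 0.42 and −0.09.

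Among genes of lipid droplets and lysosomal lipid, 4 of 16 were named and 1 rose. Soat1, the enzyme that esterifies cholesterol for storage, read 7.74, 7.80 and 7.64 in coculture and 7.17, 6.91 and 7.06 in monoculture. It rose by 0.67 (SE 0.08, limma adjusted p = 0.0074), opposite in direction to the members. Pnpla2, the triglyceride lipase of droplets, was at −0.15 (limma adjusted p = 0.0932). None of the 5 named genes of PPAR and fatty acid oxidation was called by limma, and only Hadhb was at an unadjusted p under 0.05. Hadhb, a subunit of the mitochondrial trifunctional protein, was at 0.48 and the coactivator gene Ppargc1b at 0.18.

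For Plpp3, 7 of 18 genes of lipid phosphate phosphatases and their substrates were named and none was called by limma, with Sphk1 and Sphk2 at an unadjusted p under 0.05. Its relative Plpp2 was at background on all arrays. Sphk1, which makes sphingosine 1-phosphate, read 7.96, 8.75 and 7.12 in coculture and was not above background in any monoculture (6.39, 6.31 and 6.51). Its coculture mean was 2.48-fold above the mean background limit of the monocultures, without allowance for the spread of the cocultures. Sphk1 did not pass the test (limma adjusted p = 0.0704). Sphk2, the second kinase, was at −0.61, Lpin2, a phosphatidate phosphatase, at 0.12 and Lpar1, a receptor for lysophosphatidic acid, at −0.03.

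**Figure D4:**
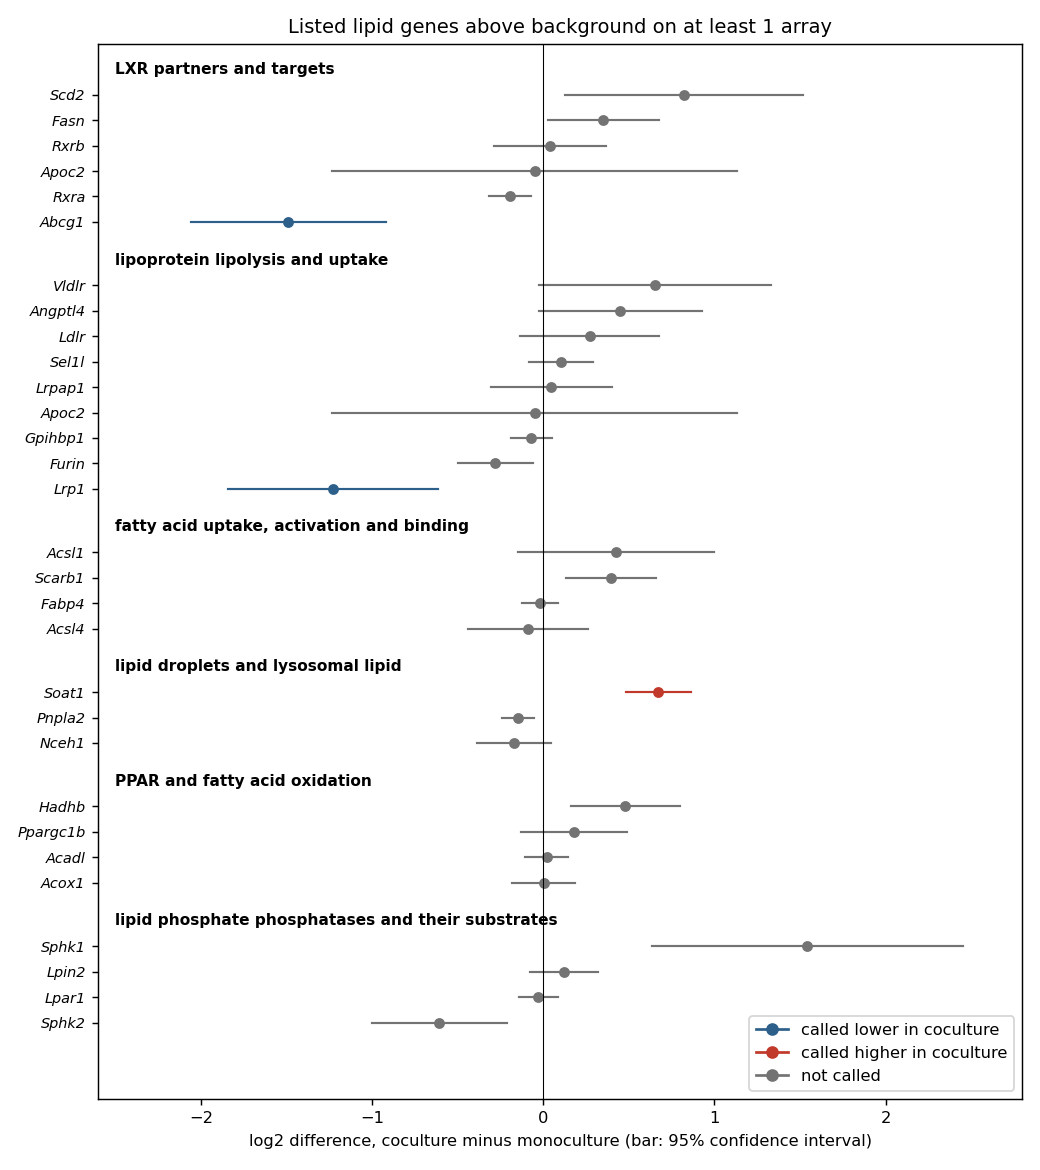
Difference of coculture minus monoculture (log2, horizontal axis) with 95% confidence intervals for genes of the 6 pathway lists above background on at least 1 array (vertical axis), with genes called lower in blue, called higher in red and others in grey. Only Abcg1, Lrp1 and Soat1 are called, and the point of Sphk1 is a difference from monocultures that are not above background.

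The profiles of the members over the 6 arrays were compared after each was centred on its mean, by the root mean square (RMS) difference, for 4290 named genes with signal. Likeness by this measure is set mainly by the difference between the groups. Lpl and Fabp3 were closest among the members (RMS 0.19), followed by Nr1h3 and Fabp3 (0.21) and by Lpl and Nr1h3 (0.28). Il7r, the receptor for interleukin 7, was the nearest other gene for each of these 3, at 0.23 from Lpl and 0.26 from Nr1h3 and from Fabp3. Plpp3 was nearest to Pmp22, a membrane protein of myelin and other cells, at 0.21. Apoe stood apart with 0.82 to 0.96 to the other members, and the genes nearest to it were Gpr137b (0.71), the phagosomal metal transporter gene Slc11a1 (0.72), Il7r (0.76) and Cd68 (0.76).

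Genes next to the members on the chromosome were read for comparison, taking 3 protein-coding genes on each side in the order of the mouse annotation, a rule set after values had been seen. Of 30 such genes 10 had a named probe and 1 fell. Acp2, which encodes a lysosomal acid phosphatase and lies next to Nr1h3, read 9.39, 9.47 and 8.74 in coculture and 10.40, 10.47 and 10.59 in monoculture. It fell by 1.29 (SE 0.19, limma adjusted p = 0.0154), and the call was lost without monoculture 1 and with background subtracted (limma adjusted p = 0.0559 and 0.155). Around Apoe, Apoc2 was at −0.05 as given above, Tomm40, a subunit of the mitochondrial import pore, was at 0.20 (limma adjusted p = 0.490), and Nectin2, an adhesion molecule, was at 1.16 (limma adjusted p = 0.0558). Next to Lpl, Ints10, a subunit of the Integrator complex, was at 0.37, which is under 1.5-fold.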

How the data were processed

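RNA of 6 cultures was hybridised to a beadarray. The authors read every bead by itself, dropped outlying beads, took the mean for each probe and normalized by quartiles. The deposited values are log2 signals, whose scale was read from their range and whose background correction is not given in the sources used here. A second deposited table was not used because its 6 signal columns could not be matched to a label. Entrez Gene IDs in probe identifiers were named through RefSeq genes of assembly GRCm38.p6, which gave 9796 probes, with 36832 left unnamed, so further probes of these genes may exist. The fit was limma 3.58.1 in R 4.3.3 (lmFit, eBayes, all 6 arrays, group only) with Benjamini-Hochberg adjustment over 46628 probes, tested on simulated data. A listed gene was read on its brightest probe. Not every listed gene that was counted is named or plotted, and 1 uncalled gene is not reported here. Named were all members, all called listed genes, up to 4 uncalled ones per pathway list by brightness, and the nearest 5 profiles, of which the closest are given. In the marker lists the uncalled genes named did not all follow this rule. Srebf1, Plpp2, Cd36, Msr1, Fabp5, Fabp6, the folds of Sphk1 and Gpnmb over background limits and the neighbours were added after values were seen. Members and lists were chosen with earlier results of these data known. The number of arrays limits the precision.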

Additional observations from a re-analysis of the deposited data

How the results depend on the processing

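Of 65 refitted differences of member probes, 62 moved by less than the replicate spread. The 5 probes with signal stayed lower in coculture in every refit, and Lpl probe 2, at background, lay between −0.052 and 0.055 with 1 array left out. Much of this was fixed in advance. Leaving out 1 array cannot shift a difference by that spread, nor reverse it where the groups do not overlap. The replicate block and the omission of dim probes keep the difference itself unchanged. The exceptions in size came with background subtracted, which gave −4.60 for Nr1h3, −5.49 for Fabp3 and −4.91 for Plpp3. With this subtraction Fabp3 and Plpp3 had coculture arrays at the floor, on which their sizes depend. That setting called 92 probes lower and 45 higher, and 0 genes of LXR partners and targets (lower), lipolysis (lower), lipid droplets (higher), macrophages (lower), progenitors (higher) and megakaryocytes (lower). Leaving out 1 array at a time gave −3.42 to −3.25 for Lpl probe 1, −3.62 to −3.32 for Nr1h3, −3.73 to −2.19 for Apoe, −3.54 to −3.30 for Fabp3 and −2.83 to −2.51 for Plpp3. It gave 583 to 907 probes lower and 433 to 922 higher. It gave 0 to 1 genes lower for LXR partners and targets, 0 to 1 lower and 0 to 1 higher for lipolysis, 0 to 1 lower and 0 to 1 higher for lipid phosphate phosphatases, 0 to 1 higher for progenitors and 0 to 1 lower for endothelial cells. For macrophages it gave 2 to 4 genes lower. Samples with the same replicate number did not deviate together (r = −0.11, −0.11 and −0.10), and those with different numbers had r from 0.02 to 0.09. With 3 arrays per group these values cannot settle whether the numbers mark cultures that belong together. With the replicate block, the difference of Apoe was −2.91 (SE 0.50), 610 probes were lower and 571 higher, LXR partners and targets had 1 gene higher, and lipolysis and megakaryocytes had 0 lower. Leaving out dim probes, or a prior variance with trend, gave 1 lipid phosphate phosphatase gene higher, and centring on bright probes gave 0 progenitor genes higher. The cause of these changes was not tested. The replicate block also lost the call of Acp2 (limma adjusted p = 0.0544). Signal over background limits the differences of Nr1h3, Fabp3 and Plpp3.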
